A study of Mus musculus with 6 samples.

Results

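The genes described here are the enzymes that make, recycle and use glutathione and the other enzymes that remove peroxides and superoxide, together with *Nfe2l2* and *Keap1*, the regulator pair that controls many of them. They were chosen by gene family (the glutathione S-transferases, the microsomal transferases, the glutathione peroxidases, the peroxiredoxins and the thioredoxin reductases) and by 13 further names, and they came to 52 of the 19505 genes on the array, each with 1 probe set. RNA was measured on one-colour expression arrays in luminal mammary epithelial cells of Sox9-GFP;C3(1)/Tag mice aged about 3 months, sorted by flow cytometry into Sox9-GFP high cells (3 arrays) and Sox9-GFP low cells (3 arrays). The comparison asks how luminal cells with a strong SOX9 reporter signal differ from those with a weak one before overt tumours form. Both sorts carried the same alleles: the Sox9-GFP transgene, a reporter of *Sox9*, and C3(1)/Tag, which expresses SV40 large T antigen, an inhibitor of p53 and RB, from the C3(1) promoter, in this gland mainly in luminal cells without estrogen receptor. No array came from mice without the T antigen, so every value describes cells from this tumour model, and in bulk samples fewer cells of a type and less RNA per cell cannot be told apart.

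Glutathione is a tripeptide built in a pair of steps, the first and rate-limiting one by glutamate-cysteine ligase, a dimer of the subunits GCLC and GCLM, and it is the electron donor with which glutathione peroxidases reduce peroxides and with which transferases tag reactive compounds. Thioredoxin and its reductases drive a parallel system that serves the peroxiredoxins, and both systems take their electrons from NADPH. The transcription factor NRF2, the product of *Nfe2l2*, is held at a low protein level by KEAP1 and, when released, binds antioxidant response elements in the promoters of many of these genes.

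The sort and the cells were first checked against the labels. *Sox9* had log2 values of 14.42, 13.77 and 14.46 in Sox9-GFP high cells, against 13.36, 12.82 and 13.44 in Sox9-GFP low cells, and rose 2.02-fold (limma, adjusted p = 0.0360), without overlap, although it passed in 2 of 9 fits with arrays left out (largest adjusted p = 0.173). Array medians lay between 5.15 and 5.21, and arrays correlated across probe sets at 0.992 to 0.994 (Pearson's r) within a sort and at 0.979 to 0.988 between sorts. Of 13 measured luminal markers 1 passed the threshold, *Krt19*, which fell, and all 12 measured immune markers lay below the array median on every array. Of 12 milk genes 10 fell and none rose, and of 15 mitosis genes 9 rose and none fell. Values are log2 intensities as deposited, without a background level, so they are compared between sorts for 1 gene at a time and not between genes. Of the 52 genes, 12 lay below the median of all probe sets on every array, as did 10057 of all 22206 probe sets. The shares of all probe sets given below were not matched for brightness.

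Among the 52 genes, 7 fell and 3 rose in Sox9-GFP high cells, and 42 did not pass the test (limma, adjusted p under 0.05 over all 22206 probe sets). The falls, *Gclc*, *Srxn1*, *Mgst1*, *Gclm*, *Nqo1*, *Gpx1* and *Txnrd1*, ran between 7.49-fold and 1.65-fold, and the rises, *Gpx7*, *Gpx8* and *Gstm5*, between 2.89-fold and 1.63-fold. The falls were 13.5% of the genes, where 3.20% of all probe sets fell, and the rises were 5.77%, where 4.0% of all probe sets rose. In 14 genes (26.9%, against 11.4% of all probe sets) every Sox9-GFP high array lay below every Sox9-GFP low array, and in 7 (13.5%, against 14.1%) every Sox9-GFP high array lay above. The median difference over the 52 genes, Sox9-GFP high minus Sox9-GFP low, was -0.27 on the log2 scale, against 0.01 over all genes. Of the 52 differences 34 were negative, as were 9377 of the 19505 over all genes. Without adjustment 24 of the 52 genes had a limma p under 0.05, where 20.6% of all probe sets did. Leaving out Sox9-GFP low replicate 2 gave a median of -0.14, and leaving out Sox9-GFP low replicate 1 gave -0.37.

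**Figure D1:**
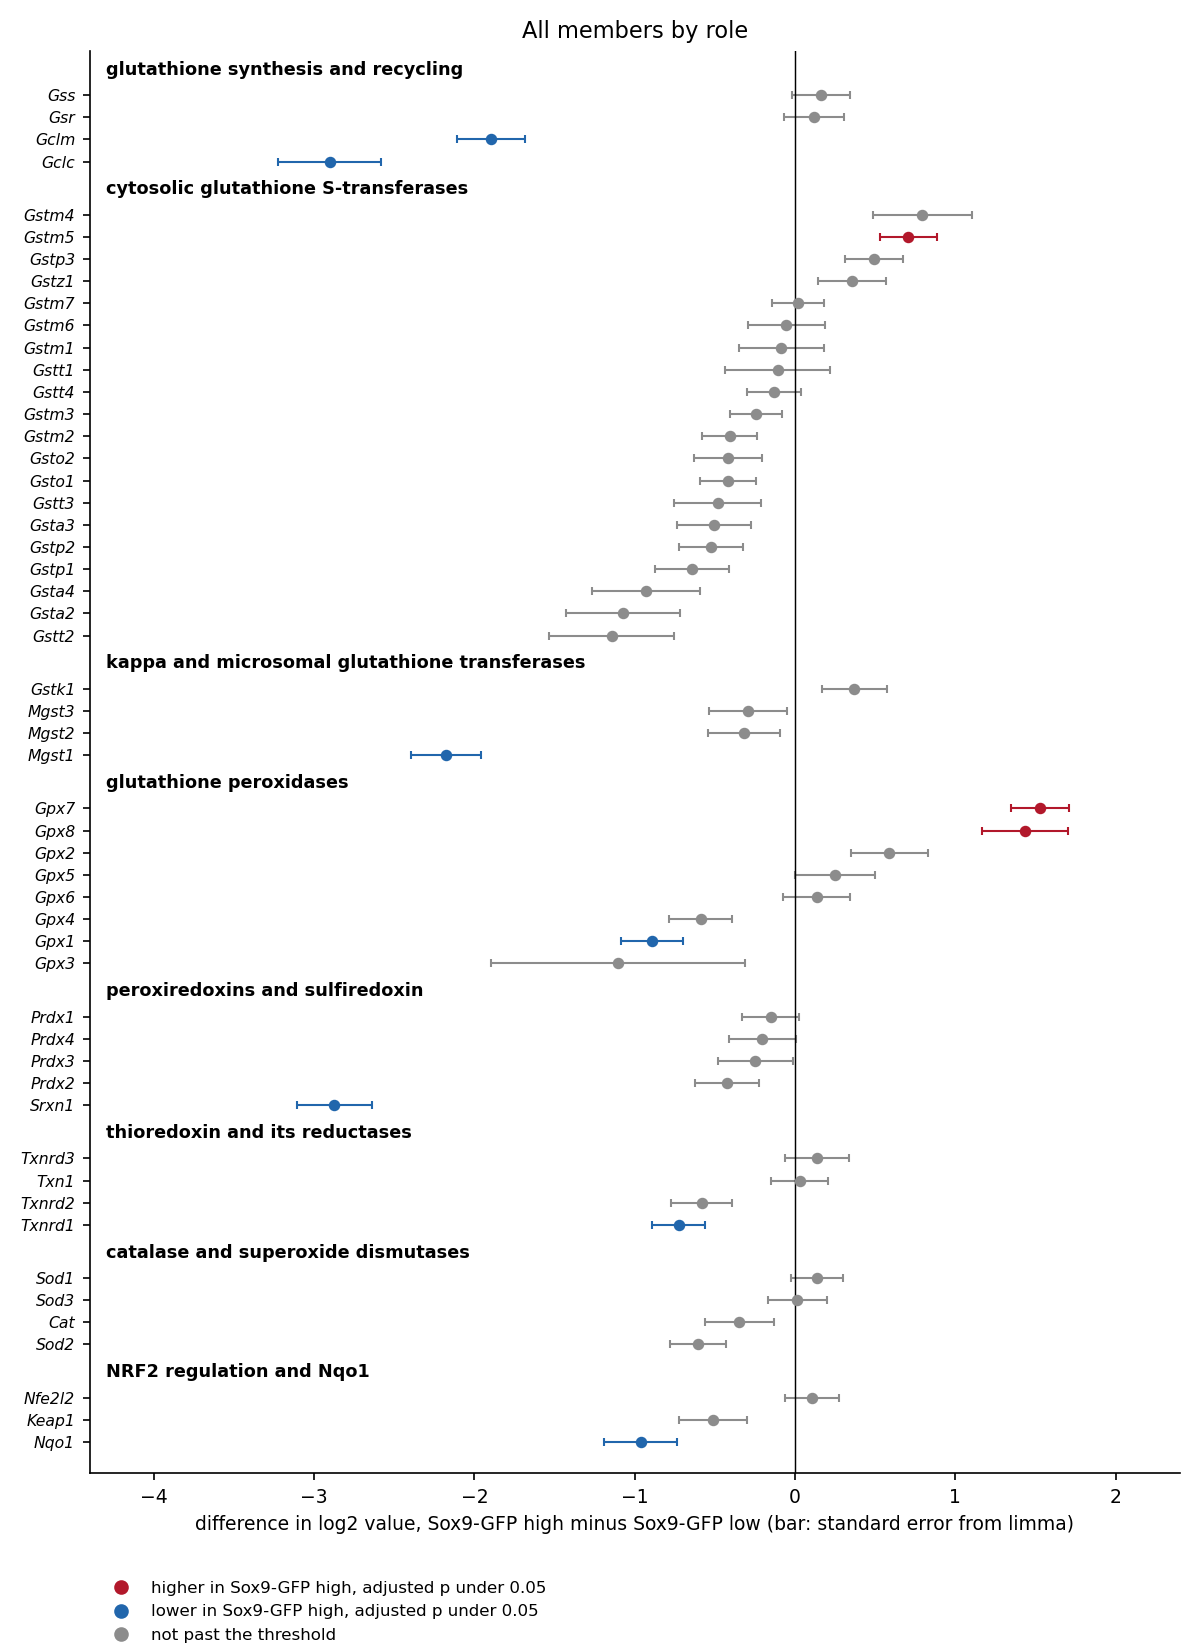
Difference in log2 value, Sox9-GFP high minus Sox9-GFP low, for the 52 genes ordered by role, with the standard error from limma as bars. Blue points fell, red points rose and grey points did not pass the adjusted p threshold of 0.05; the blue points are 7 genes and the red ones 3, and *Gclc*, *Srxn1*, *Mgst1* and *Gclm* lie farthest to the left.

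Each array pair with the same number in the labels shared part of its deviation from the sort means. In the Sox9-GFP high sort, replicate 2 gave the highest value for 33 of the 52 genes, and in the Sox9-GFP low sort replicate 2 gave the highest value for 37. The same count was not made over all probe sets, so it cannot be called particular to these genes. With the number as a replicate block, 10 genes fell (19.2%, against 4.99% of all probe sets) and the same number as before, 3, rose (5.77%, against 6.32%). The 3 additional falls were *Sod2*, *Gstt2* and *Gsta4*, described below with their families. Within the pairs, 26 of the 52 genes (50.0%, against 20.7% of all probe sets) were lower in the Sox9-GFP high array of all 3 pairs, and 10 (19.2%, against 24.1%) were higher in all 3.

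**Figure D2:**
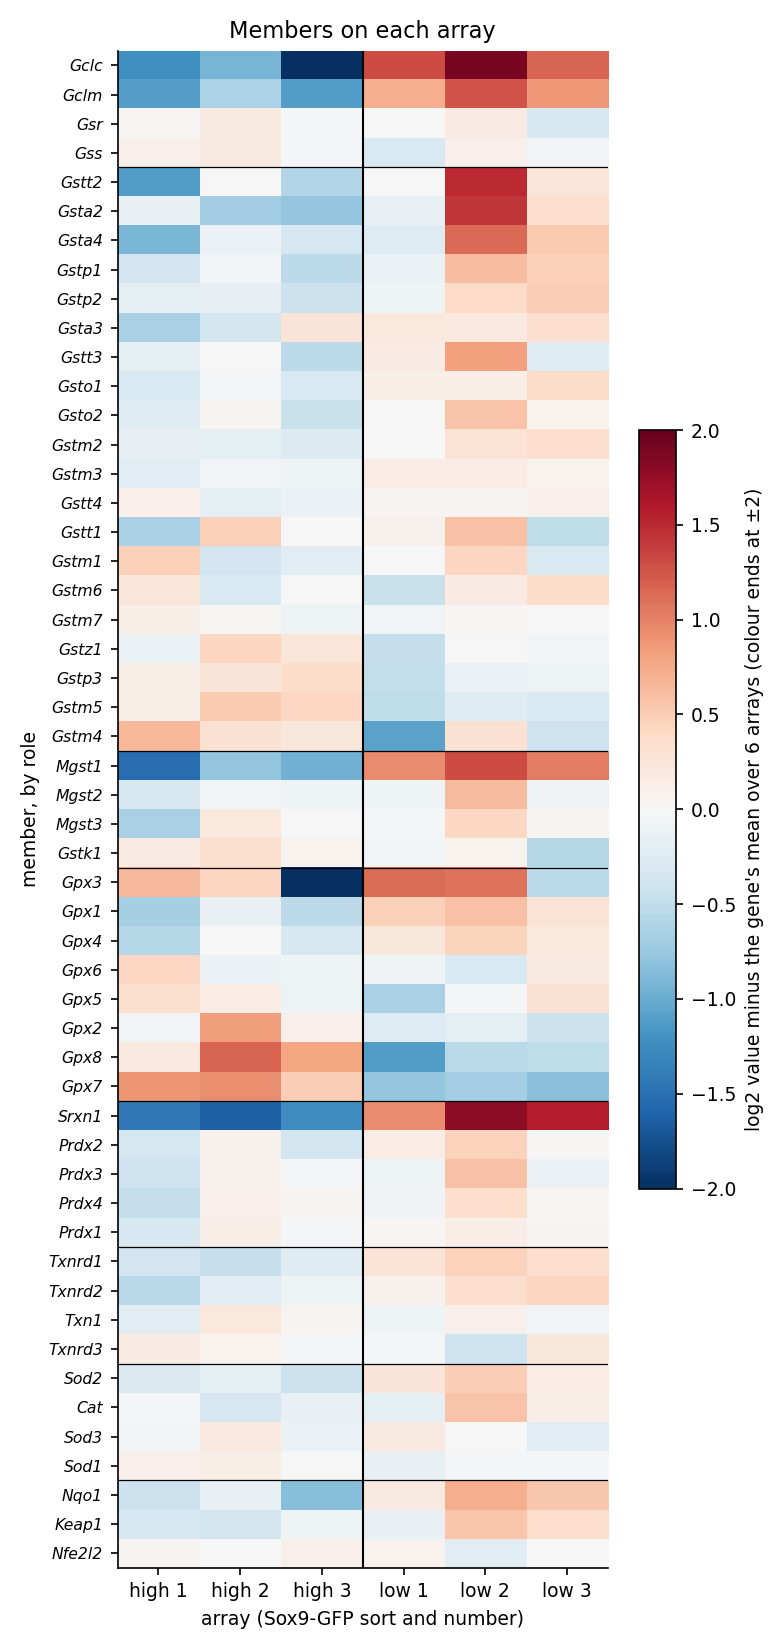
Log2 value of each of the 52 genes on each array minus that gene's mean over the 6 arrays, with the Sox9-GFP high arrays on the left and the Sox9-GFP low arrays on the right, genes grouped by role. Rows such as *Gclc*, *Gclm*, *Mgst1* and *Srxn1* are blue on all 3 Sox9-GFP high arrays and red on all 3 Sox9-GFP low arrays. Most rows are pale. The Sox9-GFP low replicate 2 column holds the highest value of its sort in 37 rows, a count not made over all probe sets.

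Of the 4 genes of glutathione synthesis and recycling, both subunits of glutamate-cysteine ligase fell and the other 2 genes did not pass the test. *Gclc*, the catalytic subunit, had log2 values of 8.98, 9.26 and 8.0 in Sox9-GFP high cells, against 11.50, 12.09 and 11.36 in Sox9-GFP low cells. Replicate 3 was the lowest array of each sort, and every Sox9-GFP high array lay far below every Sox9-GFP low array. The means were 8.75 ± 0.66 in Sox9-GFP high cells, against 11.65 ± 0.39 in Sox9-GFP low cells (SD, n = 3 each), a 7.49-fold fall (difference -2.90, SE 0.32, limma adjusted p = 9.4e-04). *Gclm*, the modifier subunit, had log2 values of 12.32, 12.78 and 12.31 in Sox9-GFP high cells, against 14.14, 14.68 and 14.29 in Sox9-GFP low cells. Replicate 2 was the highest array of each sort, and no value of one sort reached the range of the other. The fall was 3.73-fold (difference -1.90, SE 0.21, limma adjusted p = 9.7e-04). *Gss*, glutathione synthetase, which adds the last amino acid, averaged 5.29 ± 0.12 in Sox9-GFP high cells, against 5.13 ± 0.21 in Sox9-GFP low cells (SD, n = 3 each), with a 95% interval of the difference of -0.24 to 0.56. *Gsr*, the reductase that recycles oxidised glutathione, differed by 0.12 with an interval of -0.30 to 0.53. A change of either by as much as *Gclm* lay outside these intervals.

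Among the 5 peroxiredoxin and sulfiredoxin genes, only sulfiredoxin passed the test. *Srxn1*, which reduces over-oxidised peroxiredoxins and so returns them to use, had log2 values of 9.75, 9.55 and 9.94 in Sox9-GFP high cells, against 12.13, 12.97 and 12.76 in Sox9-GFP low cells. The Sox9-GFP high arrays lay close together and far below the lowest Sox9-GFP low array, replicate 1. *Srxn1* fell 7.33-fold (difference -2.87, SE 0.24, limma adjusted p = 3.0e-04). Its substrates showed differences of -0.15 (*Prdx1*), -0.42 (*Prdx2*), -0.25 (*Prdx3*, the mitochondrial member) and -0.20 (*Prdx4*, the endoplasmic reticulum member), all with overlapping arrays and adjusted p between 0.269 and 0.719 by limma. For *Prdx1* the interval of the difference was -0.55 to 0.24.

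Among the 4 kappa and microsomal transferases, *Mgst1* alone passed the test. *Mgst1*, a membrane enzyme of the endoplasmic reticulum and outer mitochondrial membrane with both transferase and peroxidase activity, had log2 values of 13.58, 14.30 and 14.14 in Sox9-GFP high cells, against 16.04, 16.39 and 16.12 in Sox9-GFP low cells. The sorts did not overlap, and Sox9-GFP high replicate 1 was the lowest array. *Mgst1* fell 4.52-fold (difference -2.18, SE 0.22, limma adjusted p = 6.0e-04). The relatives *Mgst2* and *Mgst3* had differences of -0.32 and -0.29, and *Gstk1*, the kappa enzyme of mitochondria and peroxisomes, had one of 0.37 (adjusted p = 0.357 by limma) although each of its Sox9-GFP high arrays lay above each of its Sox9-GFP low arrays.

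**Figure D3:**
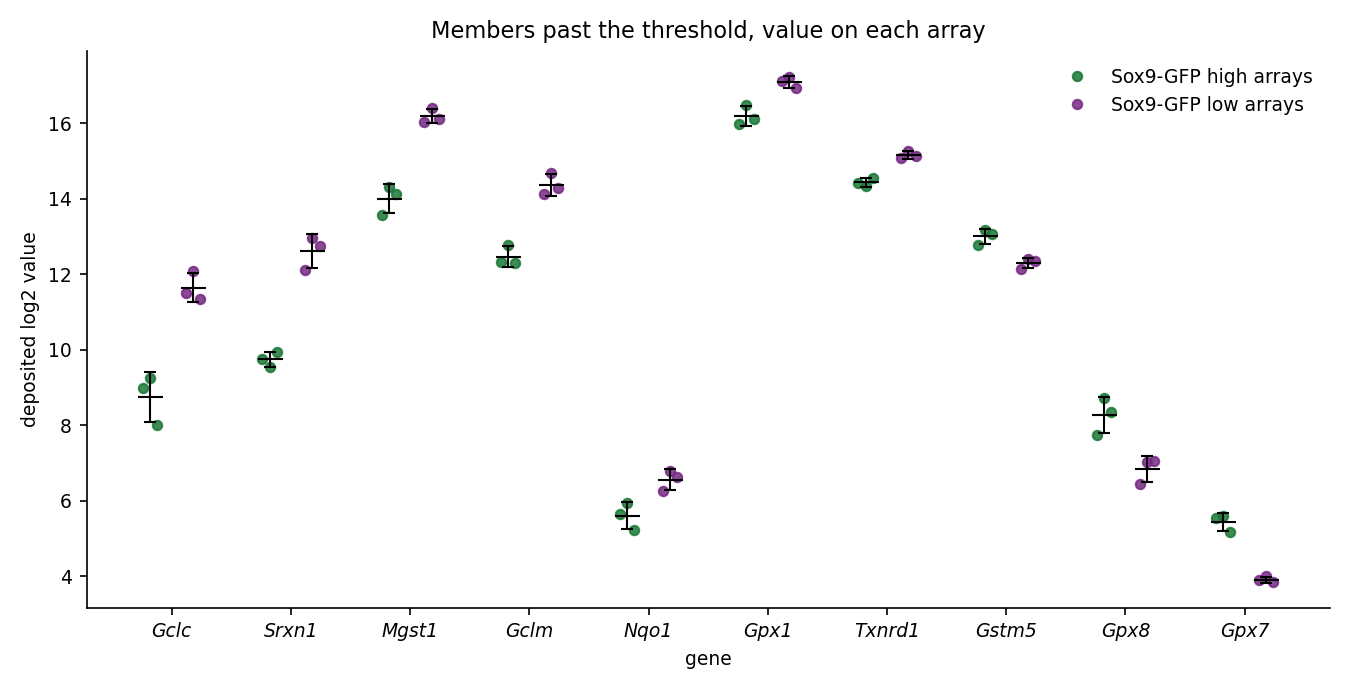
Deposited log2 value of the 10 genes past the threshold on each array, Sox9-GFP high arrays (green) to the left of Sox9-GFP low arrays (purple), with mean and SD as black marks. No gene has overlapping sorts; *Gclc* runs over 8.0 to 9.26 in the Sox9-GFP high sort, against 11.36 to 12.09 in the Sox9-GFP low sort, and *Gpx7* and *Gpx8* are higher in the Sox9-GFP high sort.

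The promoters of the genes that fell were read for the antioxidant response element core, spelled TGACNNNGC (GCNNNGTCA on the other strand), in RefSeq windows of GRCm38.p6 that run from 250 bases before to 50 bases after each annotated start. The core was found in a window of 4 of the 6 falling genes that have one (*Gclm*, *Mgst1*, *Txnrd1* and *Srxn1*), in 1 of the 3 rising genes (*Gstm5*) and in 5 of the 38 genes with a window that did not pass, against 14% of all 27025 genes with a window. In the pathway lists below, the core stood in 5 of 24 falling genes (20.8%) and 3 of 10 rising genes (30%) with a window. Among the pathway genes that did not pass it stood in 19 of 122 (15.6%). The genes differ in how many starts are annotated, and the core stood in 1 window of *Mgst1* and of *Txnrd1* only. The 150 bases before the start of the genes that passed and whose upstream stretch carries the core or an AP-1 motif are shown because they are the stretches in which the falling genes and the rising *Gstm5* can be set side by side; capitals mark the core in *Gclm* (chr3:122245407-122245556, plus strand), *Mgst1* (chr6:138140377-138140526, plus strand), *Txnrd1* (chr10:82859056-82859205, plus strand) and *Gstm5* (chr3:107895704-107895853, plus strand), and the AP-1 motif TGAGTCA in *Srxn1* (chr2:152105374-152105523, plus strand).
Gclm: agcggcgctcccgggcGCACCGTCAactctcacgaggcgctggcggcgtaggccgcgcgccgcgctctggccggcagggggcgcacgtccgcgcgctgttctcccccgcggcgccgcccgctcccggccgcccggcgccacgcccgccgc
Mgst1: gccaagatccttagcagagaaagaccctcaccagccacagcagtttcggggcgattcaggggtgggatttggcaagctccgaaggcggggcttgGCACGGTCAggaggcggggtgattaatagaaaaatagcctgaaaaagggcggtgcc
Txnrd1: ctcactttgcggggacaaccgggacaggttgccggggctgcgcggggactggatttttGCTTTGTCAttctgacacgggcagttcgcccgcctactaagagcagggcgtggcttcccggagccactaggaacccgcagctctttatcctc
Srxn1: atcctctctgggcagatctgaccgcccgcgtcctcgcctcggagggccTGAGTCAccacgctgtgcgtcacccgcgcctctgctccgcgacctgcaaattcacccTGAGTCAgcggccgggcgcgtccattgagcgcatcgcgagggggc
Gstm5: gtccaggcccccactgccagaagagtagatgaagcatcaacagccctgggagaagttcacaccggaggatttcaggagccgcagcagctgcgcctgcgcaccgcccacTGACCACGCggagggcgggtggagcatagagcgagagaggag
The first letter of the core stood at position -134 in *Gclm*, -56 in *Mgst1*, -92 in *Txnrd1* and -42 in *Gstm5*, counted from the start. *Srxn1* had its core, in the spelling searched, after the start, at position 29. It had AP-1 motifs (TGACTCA or TGAGTCA, in 5.95% of all genes with a window) at positions -102 and -45. The motif at -45 is followed by GC, so it differs from TGACNNNGC only in the letter after TGA. No other spelling of the core was searched. AP-1 motifs also stood in 1 of the 3 rising genes (*Gstm5*, at -176, before the bases shown) and in 4 of the 38 genes that did not pass. A match of letters is a description of the sequence and not a bound site, and such cores stood before a gene that rose and before genes that did not pass, such as *Nfe2l2*, *Prdx1* and *Sod1*, as well.

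Of the 8 glutathione peroxidases 2 rose (25%, against 4.0% of all probe sets), 1 fell (12.5%, against 3.20%) and 5 did not pass. *Gpx7* and *Gpx8* encode the endoplasmic reticulum members, which carry cysteine in place of selenocysteine at the active site. *Gpx7* had log2 values of 5.55, 5.60 and 5.17 in Sox9-GFP high cells, against 3.91, 3.99 and 3.84 in Sox9-GFP low cells. The Sox9-GFP low arrays were nearly equal to each other and all below the array median, and Sox9-GFP high replicate 3 lay at about that median. *Gpx7* rose 2.89-fold (difference 1.53, SE 0.18, limma adjusted p = 0.00128). *Gpx8* had log2 values of 7.76, 8.72 and 8.35 in Sox9-GFP high cells, against 6.44, 7.03 and 7.06 in Sox9-GFP low cells. Replicate 1 was the lowest array of both sorts, and the sorts did not overlap. *Gpx8* rose 2.70-fold (difference 1.43, SE 0.27, limma adjusted p = 0.0114), a call lost without both arrays of number 2 or both of number 3 (largest adjusted p = 0.0889 by limma).

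*Gpx1*, the abundant cytosolic selenoenzyme, went the other way. Its log2 values were 15.99, 16.50 and 16.12 in Sox9-GFP high cells, against 17.13, 17.23 and 16.92 in Sox9-GFP low cells. The nearest arrays of the sorts, Sox9-GFP high replicate 2 and Sox9-GFP low replicate 3, were close, and the sorts did not overlap. *Gpx1* fell 1.86-fold (difference -0.89, SE 0.19, limma adjusted p = 0.0216), but it passed in only 2 of the 9 fits with an array or a number omitted, those without Sox9-GFP high replicate 2 or Sox9-GFP low replicate 3, with a largest adjusted p of 0.151. *Gpx4*, which reduces lipid hydroperoxides in membranes, had 15.43, 16.02 and 15.68 in Sox9-GFP high cells, against 16.22, 16.45 and 16.22 in Sox9-GFP low cells. Its arrays did not overlap, but the difference of -0.59 had an adjusted p of 0.109 by limma. *Gpx3*, the secreted form, had 10.65, 10.43 and 7.26 in Sox9-GFP high cells, against 11.11, 11.09 and 9.46 in Sox9-GFP low cells. Replicate 3 was the low array of both sorts, and in the unblocked fit the difference of -1.11 had an interval of -2.87 to 0.66. The adjusted p of *Gpx3* was 0.505 by limma, and 0.0518 with the replicate block. *Gpx2* had a difference of 0.59 without overlap of the sorts (adjusted p = 0.194 by limma).

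Cytosolic glutathione S-transferases join glutathione to reactive compounds. Among 20 of them *Gstm5* rose (5%, against 4.0% of all probe sets) and no gene fell (against 3.20%). Of the 20 differences 15 were negative, as were 9377 of the 19505 over all genes. *Gstm5*, of the mu class, had log2 values of 12.79, 13.18 and 13.07 in Sox9-GFP high cells, against 12.15, 12.41 and 12.35 in Sox9-GFP low cells. Replicate 1 was lowest in both sorts, and the sorts did not overlap. *Gstm5* rose 1.63-fold (difference 0.71, SE 0.18, limma adjusted p = 0.0429), passed in 1 of the 9 fits with an array or a number omitted, the one without Sox9-GFP high replicate 1, and had an adjusted p of 0.0663 after quantile normalization. The other 6 mu genes measured had differences of -0.41 (*Gstm2*) to 0.79 (*Gstm4*), none past the threshold. All 7 mu genes are neighbours on chromosome 3 and paralogues of each other, and which of them share probes is not given, so their single values are uncertain.

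The widest negative differences among the cytosolic transferases were those of *Gstt2*, of the theta class, and *Gsta2* and *Gsta4*, of the alpha class. The median difference was -0.31 over the 4 theta genes and -0.93 over the 3 alpha genes. It was -0.53 over the pi genes and -0.42 over the omega genes. *Gstt2* had 5.36, 6.46 and 5.89 in Sox9-GFP high cells, against 6.46, 7.97 and 6.71 in Sox9-GFP low cells. Replicate 2 was the highest array of both sorts, and each Sox9-GFP high array lay below the Sox9-GFP low array of its own number. The difference of -1.14 had a limma adjusted p of 0.118, and of 0.00526 with the replicate block. *Gsta4*, whose enzyme removes the lipid aldehyde 4-hydroxynonenal, had 7.28, 8.07 and 7.84 in Sox9-GFP high cells, against 7.93, 9.33 and 8.71 in Sox9-GFP low cells, with a difference of -0.93 and a limma adjusted p of 0.139, or 0.0127 with the replicate block. *Gsta2* was at 3.61, 3.07 and 3.0 in Sox9-GFP high cells, against 3.61, 5.19 and 4.10 in Sox9-GFP low cells, and did not pass either fit. Of these values only that of Sox9-GFP low replicate 2 reached the median of its array. In the pi class *Gstp1* and *Gstp2* had differences of -0.64 and -0.53 and *Gstp3* one of 0.49, and in the omega class *Gsto1* had one of -0.42. *Gstm2*, *Gstm3*, *Gsto1* and *Gstp2* lay lower without overlap of the sorts, but none passed. They were 20% of the cytosolic transferases, against 11.4% of all probe sets. *Gstp3* lay higher without overlap and did not pass. With *Gstm5* it made 10% of these transferases, against 14.1% of all probe sets.

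In the thioredoxin system *Txnrd1* fell and the other 3 genes did not pass. *Txnrd1*, the cytosolic thioredoxin reductase, had log2 values of 14.42, 14.34 and 14.56 in Sox9-GFP high cells, against 15.08, 15.27 and 15.14 in Sox9-GFP low cells. The arrays of each sort lay close together, and the sorts did not overlap. *Txnrd1* fell 1.65-fold (difference -0.72, SE 0.17, limma adjusted p = 0.0276), but passed in 0 of the 9 fits with an array or a number omitted, with adjusted p between 0.0571 and 0.170 by limma. *Txnrd2*, the mitochondrial reductase, had 8.03, 8.35 and 8.47 in Sox9-GFP high cells, against 8.66, 8.93 and 9.01 in Sox9-GFP low cells, a difference of -0.58 without overlap (adjusted p = 0.103 by limma, 0.0511 with the replicate block). *Txn1*, thioredoxin itself, averaged 17.61 ± 0.22 in Sox9-GFP high cells, against 17.58 ± 0.10 in Sox9-GFP low cells (SD, n = 3 each), and the interval of its difference was -0.37 to 0.43. *Txnrd3* had a difference of 0.14.

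None of the 4 genes of catalase and the superoxide dismutases passed the test. *Sod2*, the mitochondrial manganese enzyme, had 8.79, 8.90 and 8.65 in Sox9-GFP high cells, against 9.35, 9.58 and 9.24 in Sox9-GFP low cells. The sorts did not overlap, and replicate 2 was the highest in each. Its difference of -0.61 had an adjusted p of 0.0692 by limma, and of 0.0450 with the replicate block. *Sod1*, the cytosolic copper and zinc enzyme, averaged 17.34 ± 0.07 in Sox9-GFP high cells, against 17.21 ± 0.07 in Sox9-GFP low cells (SD, n = 3 each), an interval of the difference of -0.22 to 0.50. *Cat*, the peroxisomal catalase, had a difference of -0.35 (adjusted p = 0.428 by limma), and *Sod3*, the extracellular enzyme, was below the array median on every array in both sorts.

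Neither gene of the NRF2 and KEAP1 pair passed the test at the RNA level. *Nfe2l2* had 3.64, 3.60 and 3.69 in Sox9-GFP high cells, against 3.66, 3.36 and 3.59 in Sox9-GFP low cells, below the array median on every array, with an interval of the difference of -0.27 to 0.48. Values this dim could not be told from background, which is not part of the deposited values. *Keap1*, the substrate adaptor that sends NRF2 for degradation, had 9.32, 9.26 and 9.55 in Sox9-GFP high cells, against 9.49, 10.19 and 9.99 in Sox9-GFP low cells, a difference of -0.51 (adjusted p = 0.200 by limma). *Nqo1*, the quinone reductase long used as a readout of NRF2, fell 1.95-fold. Its values were 5.64, 5.93 and 5.22 in Sox9-GFP high cells, against 6.26, 6.80 and 6.63 in Sox9-GFP low cells, without overlap (difference -0.96, SE 0.23, limma adjusted p = 0.0323). It passed in 2 of the 9 fits with an array or a number omitted, those without Sox9-GFP high replicate 2 or Sox9-GFP low replicate 1, with a largest adjusted p of 0.256. No exact permutation test of 3 arrays against 3 can give a p below 0.10, so these calls rest on the spread that limma shares across probe sets.

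**Figure D4:**
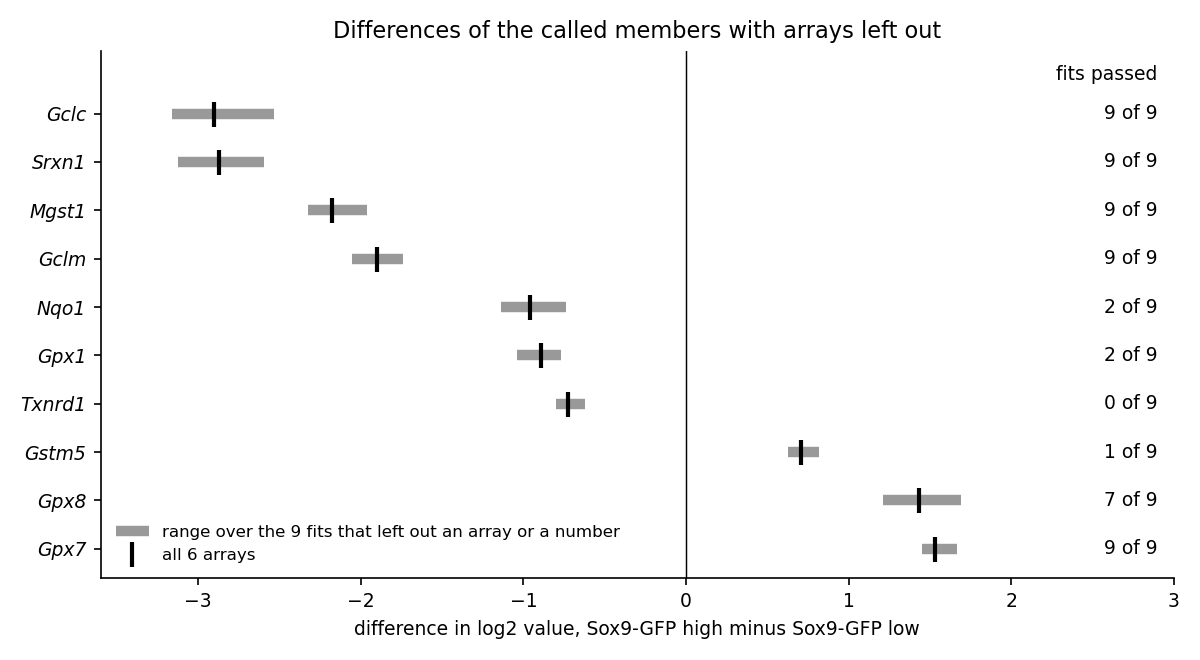
Range of the difference in log2 value, Sox9-GFP high minus Sox9-GFP low, over the 9 fits that left out 1 array or both arrays of a number (grey bars), with the value from all 6 arrays (black marks) and the number of fits in which the gene passed. *Gclc*, *Srxn1*, *Mgst1*, *Gclm* and *Gpx7* passed in 9 of 9, *Gpx8* in 7, *Nqo1* and *Gpx1* in 2, *Gstm5* in 1 and *Txnrd1* in 0, and no bar crosses 0.

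The wider pathway was read from 8 lists of 200 genes, of which 185 were measured: 28 fell, 12 rose and 145 did not pass, that is 15.1% and 6.49%, against the background of 3.20% and 4.0% given above. With the replicate block 35 fell (18.9%, against 4.99% of all probe sets) and 19 rose (10.3%, against 6.32%). The median difference over these genes was -0.14. Of the genes named from these lists, *Ggt5*, *Anpep*, *Pgd*, *Hmox1*, *Slc40a1*, *Ptges*, *Clic6*, *Msrb3*, *Faah*, *Dio2*, *Lao1*, *Xdh* and *Smox* passed in 9 of 9 fits with arrays left out. *Esd*, *Osgin1*, *Dhcr7* and *Acsl4* passed in 8, *Slc7a11* and *Me1* in 7, *Chd6* in 6 and *Idh1* in 4, while *Tspan33*, *Mafg*, *Eefsec* and *Tfrc* passed in 3, *Maoa* in 2 and *Selenop* in 1. Of the risers named beside them, *Akr1b8* passed in 7, *Nox4* in 2 and *Slc1a5* in 1.

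In transport and turnover, 6 of 26 genes fell (23.1%, against 3.20% of all probe sets) and 1 rose (3.85%, against 4.0%). *Slc7a11*, the cystine and glutamate antiporter that brings in the cysteine for glutathione, had log2 values of 12.64, 13.64 and 12.90 in Sox9-GFP high cells, against 14.41, 14.78 and 14.31 in Sox9-GFP low cells. Replicate 2 was the highest array in both sorts, and the sorts did not overlap. *Slc7a11* fell 2.71-fold (difference -1.44, SE 0.26, limma adjusted p = 0.00995). *Ggt5*, a gamma-glutamyltransferase that cleaves glutathione conjugates outside the cell, fell 4.66-fold, *Esd*, which releases glutathione from its formyl conjugate, fell 3.22-fold, and *Anpep*, an aminopeptidase of the cell surface, fell 2.77-fold. The gene that rose was *Slc1a5*, a glutamine transporter, by 1.71-fold (adjusted p = 0.0343 by limma).

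In NADPH supply 3 of 14 genes fell (21.4%, against 3.20% of all probe sets) and none rose (against 4.0%). *Pgd*, of the pentose phosphate pathway, had 7.96, 7.38 and 7.72 in Sox9-GFP high cells, against 9.31, 10.50 and 9.65 in Sox9-GFP low cells, and fell 4.39-fold (limma adjusted p = 0.00268). The sorts lay apart, with the highest Sox9-GFP high array well below the lowest Sox9-GFP low array. *Me1*, cytosolic malic enzyme, fell 2.88-fold (adjusted p = 0.0132 by limma), and *Idh1*, cytosolic isocitrate dehydrogenase, fell 2.54-fold (adjusted p = 0.0230 by limma).

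Of 28 other NRF2 target genes 6 fell (21.4%, against 3.20% of all probe sets) and 2 rose (7.14%, against 4.0%). *Hmox1*, heme oxygenase, had 12.33, 11.24 and 10.80 in Sox9-GFP high cells, against 14.47, 14.43 and 13.76 in Sox9-GFP low cells. The sorts did not overlap, and replicate 1 was the highest array in both. *Hmox1* fell 6.77-fold (limma adjusted p = 0.00209), and *Osgin1* and *Tspan33* fell 2.79-fold and 2.52-fold. *Slc40a1*, the iron exporter ferroportin, rose 3.22-fold (limma adjusted p = 0.00780), and *Akr1b8*, an aldo-keto reductase, rose 2.05-fold. Among 19 partners and regulators of NRF2, 2 fell (10.5%, against 3.20% of all probe sets) and none rose (against 4.0%). The falls were *Chd6* by 2.13-fold and *Mafg*, a small MAF partner, by 1.89-fold (adjusted p = 0.00848 and 0.0199 by limma).

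**Figure D5:**
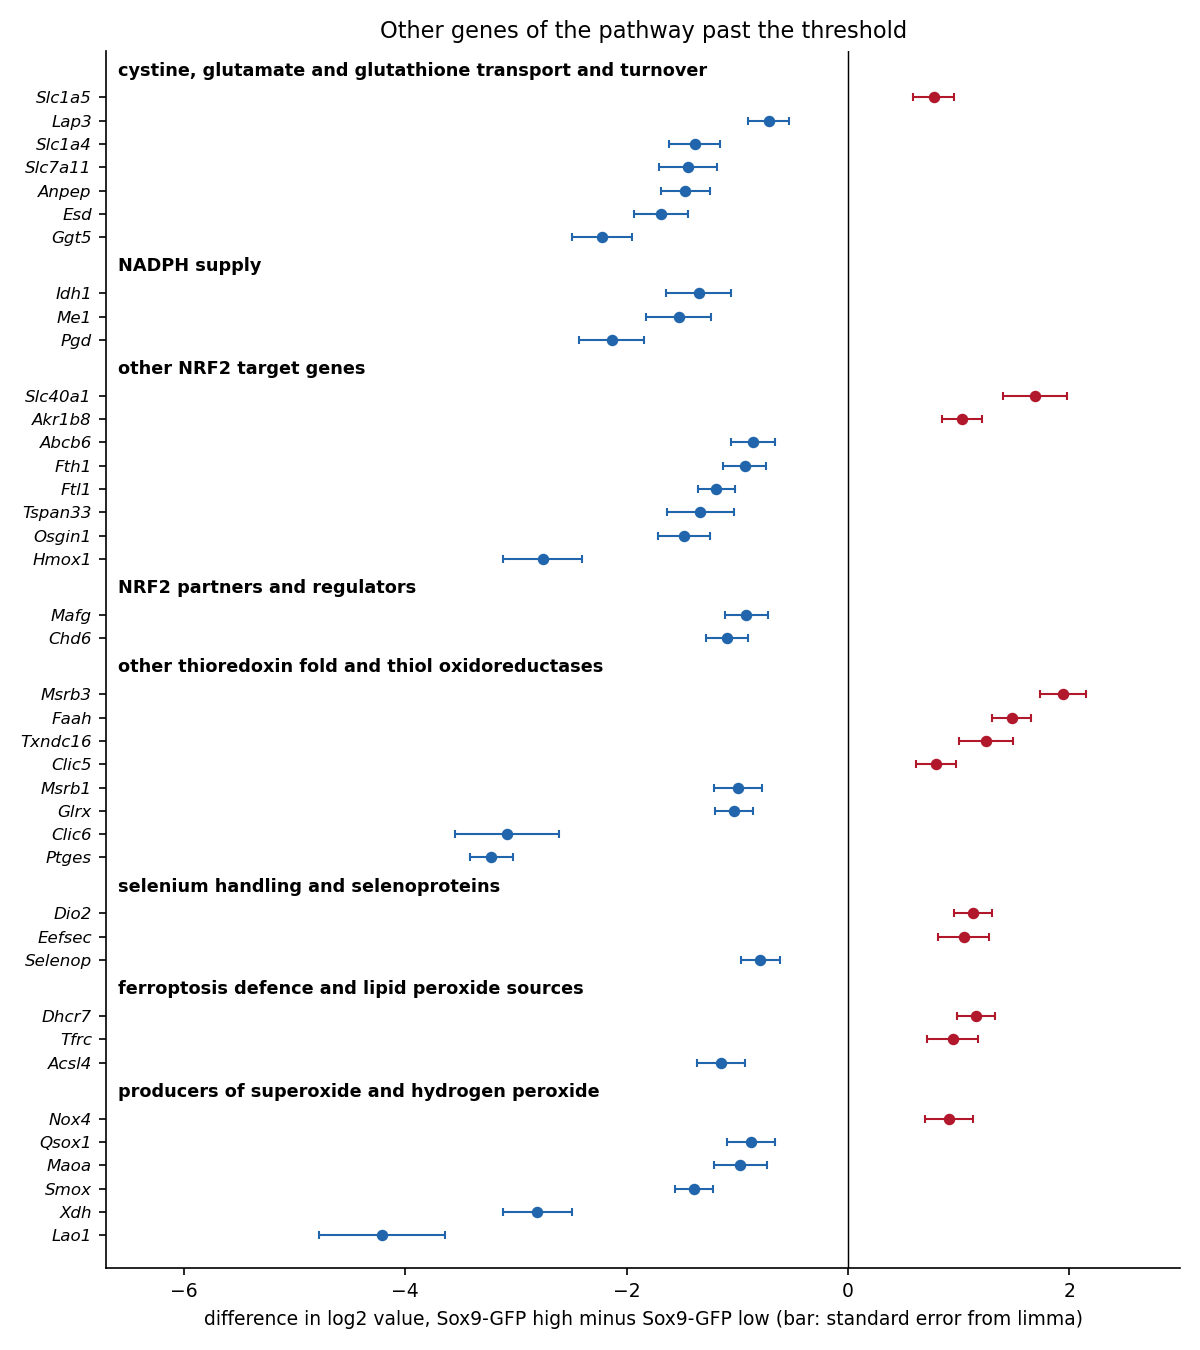
Difference in log2 value, Sox9-GFP high minus Sox9-GFP low, of the 40 genes of the 8 pathway lists past the threshold, with the standard error from limma as bars. Red points rose (12) and blue points fell (28); *Lao1* at -4.21 is the farthest to the left and *Msrb3* at 1.94 the farthest to the right.

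Of 32 other genes of the thioredoxin fold and thiol oxidoreductase list, 4 fell and 4 rose. Each was 12.5% of the list, where 3.20% of all probe sets fell and 4.0% rose. *Ptges*, prostaglandin E synthase, had 10.12, 10.19 and 9.62 in Sox9-GFP high cells, against 13.30, 13.17 and 13.12 in Sox9-GFP low cells, and fell 9.33-fold (limma adjusted p = 1.16e-04). The sorts lay apart, and the Sox9-GFP low arrays were nearly equal. *Clic6*, of the chloride intracellular channel family, fell 8.46-fold, and *Msrb3* and *Faah* rose 3.85-fold and 2.79-fold. *Msrb3* reduces oxidised methionine, while *Faah* breaks down fatty acid amides, so the list holds genes of unlike functions.

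In selenium handling 1 of 22 genes fell and 2 rose, and in ferroptosis defence with lipid peroxide sources 1 of 16 fell and 2 rose. The falls were 4.55% and 6.25% of these lists and the rises 9.09% and 12.5%, where 3.20% of all probe sets fell and 4.0% rose. *Selenop*, the selenium carrier, fell 1.73-fold, and *Dio2* and *Eefsec* rose 2.19-fold and 2.07-fold. *Acsl4*, which loads membranes with polyunsaturated fatty acids, fell 2.21-fold, while *Dhcr7* and *Tfrc*, the transferrin receptor, rose 2.23-fold and 1.93-fold.

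Among 28 producers of superoxide and hydrogen peroxide, 5 fell (17.9%, against 3.20% of all probe sets) and 1 rose (3.57%, against 4.0%). The median difference was -0.41. *Lao1*, an amino acid oxidase found in mouse milk, had 7.41, 6.07 and 5.37 in Sox9-GFP high cells, against 11.42, 10.73 and 9.33 in Sox9-GFP low cells. The sorts did not overlap although each spread widely, and replicate 3 was the lowest in both. *Lao1* fell 18.5-fold (limma adjusted p = 0.00245). *Xdh*, xanthine oxidoreductase, also needed for the secretion of milk fat, fell 7.00-fold, *Smox*, spermine oxidase, fell 2.62-fold, and *Maoa* fell 1.96-fold. *Nox4*, an NADPH oxidase, rose 1.89-fold (adjusted p = 0.0320 by limma).

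Markers of other programs moved with the sorts and are given beside these results. The summed linear level of the 12 milk genes lay between 68149 and 129479 on the Sox9-GFP high arrays and between 482094 and 749040 on the Sox9-GFP low arrays, and the median difference of that list was -2.87. The summed level of the 15 mitosis genes lay between 76738 and 87676 on the Sox9-GFP high arrays and between 35935 and 45495 on the Sox9-GFP low arrays. The summed levels of 3 other lists also lay apart between the sorts, but a linear sum mostly follows the brightest genes of a list. The 12 basal genes summed to between 36726 and 60350 on the Sox9-GFP high arrays and to between 22216 and 33376 on the Sox9-GFP low arrays, and 1 of them rose, *Krt17*. Of the 12 basal differences 5 were negative and 7 positive, with a median of 0.16. *Krt14*, the brightest basal gene in both sorts, had overlapping arrays and did not pass (adjusted p = 0.159 by limma). The 8 measured genes of the ER-positive luminal list summed to between 16049 and 17115 on the Sox9-GFP high arrays and to between 3225 and 10893 on the Sox9-GFP low arrays, with 1 rise (*Ly6d*) and 1 fall (*Fxyd2*). Of these 8 differences 7 were negative, and the median was -0.30. *Ly6d*, the brightest gene of the list in both sorts, had the only positive difference (1.67). The 9 measured adipocyte genes summed to between 6863 and 10021 on the Sox9-GFP high arrays and to between 11719 and 20018 on the Sox9-GFP low arrays. Of these, *Lipe*, hormone-sensitive lipase, fell 6.27-fold, while *Fabp4* and *Pnpla2* had differences of -1.42 and -0.72 and did not pass (adjusted p = 0.104 and 0.0832 by limma). *Adipoq*, which defines adipocytes, lay below the array median on every array in both sorts. Sums overlapped between the sorts for the 13 luminal genes, the 12 immune genes (none passed), the 10 endothelial genes (none passed), the 9 fibroblast genes (1 fell, *Dcn*) and the 4 erythroid genes (none passed).

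With the replicate block the marker lists gained calls. *Mylk* (basal, 5.77-fold, adjusted p = 0.00263) and *Postn* (fibroblast, 5.46-fold, adjusted p = 9.65e-04) rose, and so did 2 more mitosis genes and 1 luminal gene, *Krt7*. *Cited1* of the ER-positive luminal list fell 2.36-fold (adjusted p = 0.00322 by limma), and *Pnpla2*, *Dpt*, a fibroblast gene, and *Eng*, an endothelial one, fell by 0.72, 0.67 and 0.64 on the log2 scale (adjusted p = 0.0461, 0.0354 and 0.0376 by limma). The part of milk differentiation, cell division and the other listed cell types in the falls and rises of the antioxidant genes was not tested.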

How the data were processed

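The labels put the 6 arrays in a Sox9-GFP high group and a Sox9-GFP low group of luminal cells, 3 arrays each. The authors deposited log2 values, 1 column per array and probe set, and their software, normalization, background correction and genome build were not given for these arrays in the sources used here; the methods name the Transcriptome Analysis Console, under a heading on the *Sox9* knockout arrays. Labels state the GeneChip WT PLUS kit. The number of arrays limits the precision, and columns of other samples were not present (0 unused). Gene names came from the platform's annotation: 19572 probe sets had 1 symbol, 0 several and 2634 none, and RefSeq (GRCm38.p6) matched 19572 by gene identifier and changed 0. Where a gene had several probe sets, the one with the highest mean over all arrays stood for it. Of 56 protein-coding RefSeq genes that fit the choice by name, 52 were measured; *Gsta1*, *Prdx5*, *Prdx6* and *Prdx6b* were not analysed here.

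limma 3.58.1 under R 4.3.3 (functions lmFit and eBayes) tested the 22206 probe sets, two-sided and unblocked because the methods name an unpaired test. Adjustment was by Benjamini-Hochberg over every probe set, at a threshold of 0.05. Folds are differences of mean log2 values taken back to the linear scale, and intervals are 95%. The script was tested on simulated data. The labels number the arrays 1 to 3 in each sort. Arrays with equal numbers had deviations from their sort means that correlated at 0.236, 0.232 and 0.218, those with different numbers at -0.06 at most, so equal numbers were treated as pairs; no label ties a number to an animal or says whether glands were pooled, so p-values measure the spread between these arrays. Deviations sum to 0 within a sort, which pushes the values for different numbers below 0.

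The alternatives tried were array weights, the replicate block, the methods' t-test, a prior that was trended and robust, quantile normalization, median centring of each array, a fit without the dimmest 33.3% of probe sets, averaging the probe sets of a gene, and omission of every array and of every number. The genes, the lists and the tests were chosen with earlier results of these data known. Genes were named if they passed, if the sorts did not overlap, or if they were among the 4 widest differences of their role (up to 4 past the threshold per pathway list), plus NRF2, KEAP1 and the core enzymes. *Prdx1*, *Gstp1*, *Slc1a5*, *Akr1b8* and *Nox4*, and the single marker genes, were named after their values were seen. Promoters were searched in RefSeq windows for 47 of the 52 genes and for those pathway genes that had a window.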

Additional observations from a re-analysis of the deposited data

How the results depend on the processing

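The replicate block left the fit's differences as they were and moved the counts: over all probe sets 1404 rose and 1108 fell (888 and 711 without it), and of the pathway lists 19 rose (12 without it), while among the antioxidant genes 3 rose and 10 fell. No call of these genes was lost under the block, and *Sod2*, *Gstt2* and *Gsta4* were gained. Leaving out an array or a number used fewer arrays. The rises then ran between 231 and 672 over all probe sets, 1 and 3 among the antioxidant genes and 5 and 10 in the pathway lists, and the falls between 316 and 563, 4 and 7, and 13 and 24. The methods' t-test gave 2118 rises and 1647 falls over all probe sets at an unadjusted threshold, and 13 falls among the antioxidant genes. After Benjamini-Hochberg adjustment it gave 1 rise and 2 falls over all probe sets, and 0 rises and 0 falls both among the antioxidant genes and in the pathway lists; limma at an unadjusted p under 0.05 counted 24 of the 52 genes and 4583 of the 22206 probe sets (20.6%). The t-test used the same differences of means as the unblocked limma fit. It set each against that probe set's own spread, without the spread that limma shares across probe sets. Among the 41 antioxidant genes whose calls were followed through the alternatives, 11 values of 4 genes changed sign, all with arrays left out: *Txn1* (-0.0662, -0.0046, -0.0103 and -0.0146), *Sod3* (-0.0789, -0.0839, -0.0746 and -0.0226), *Txnrd3* (-0.0311 and -0.0295) and *Gsr* (-0.0176), with highest values of 0.147, 0.142, 0.335 and 0.228 in that order. Of the 11 others, 6 changed sign in at least 1 fit, and none of them had passed the test. *Gstm5* was lost with quantile normalization (adjusted p = 0.0663 by limma) and *Gpx4* gained with the trended and robust prior (adjusted p = 0.0456 by limma). Centring, array weights and the mean over probe sets changed no call of a named antioxidant gene. Leaving out the dimmest 33.3% of probe sets changed no call of the 38 named genes that remained. *Gsta2*, *Nfe2l2* and *Sod3* were among the probe sets left out and were not tested in that fit. With no background level deposited, dim genes such as *Nfe2l2* could not be told from background, and 3 arrays a sort limit what can be called.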
